A study of Homo sapiens with 6 samples.

Results

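TBX3iso2 was compared with the empty vector (EV) in 21NT cells, a contrast that rests on 4 of the 6 RNA-Seq libraries of the series. 21NT is a human breast cell line of the 21T series and stands for ductal carcinoma in situ, a lesion that has not yet invaded. The EV line carried the plasmid pcDNA3.1 without an insert, and the TBX3iso2 line carried the same plasmid with the cDNA of *TBX3* isoform 2. Both lines had been transfected with Lipofectamine and selected with G418, and the resistant clones were pooled, so each line is 1 transfected pool. Each line gave 2 libraries, and the methods do not state whether these came from separate cultures, so the p-values may measure technical spread alone. The remaining 2 libraries, from cells with TBX3iso1, entered the fit for the estimate of the spread and are not described. The 4 libraries held between 43176600 and 54512400 alignments, a depth at which 0.1 RPKM (a read density per length of transcript and per depth of sequencing) stands for 4.32 to 5.45 alignments per kb of transcript. Of 20824 genes in the table, 12805 averaged 0.5 RPKM or more across all 6 libraries and were tested with limma after 0.1 RPKM had been added and the log2 taken. A gene was called differentially expressed, here "higher" or "lower" with TBX3iso2, where the adjusted p was under 0.05 and the lines differed over 1.5-fold. All log2 fold changes are on that log2(RPKM + 0.1) scale, which shrinks the changes of low genes.

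TBX3 is a T-box transcription factor of mammary and limb development that mostly acts as a repressor and is known for keeping cells out of senescence. Its isoforms differ by an alternative exon, exon 2a, which lies in the part of the gene that encodes the DNA-binding domain. TBX3iso2 contains this exon. In epithelial-mesenchymal transition (EMT), epithelial cells lose junctions and gain mesenchymal filaments, matrix and proteases, and the factors SNAI1, SNAI2 (SLUG), TWIST1 and ZEB1 are known to drive it. Exon 2a is the sequence that sets the overexpressed isoform apart. It spans chr12:115117718-115117777 on the minus strand of GRCh37, is 60 bases long, keeps the reading frame with 20 codons, and is printed here in the direction of transcription with all of its bases in capitals.
TBX3 exon 2a: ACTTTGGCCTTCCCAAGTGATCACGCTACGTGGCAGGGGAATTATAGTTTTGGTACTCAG

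*TBX3* itself was 8.52 and 8.24 RPKM in the EV libraries and 17.5 and 15.5 RPKM in the TBX3iso2 libraries. Both TBX3iso2 libraries lay above both EV libraries, a 1.97-fold higher mean (log2 fold change 0.97, standard error 0.0989, limma adjusted p = 0.000257). The table gives 1 value per gene, so reads of the plasmid, of the cell's own gene and of each isoform cannot be told apart. Markers of breast epithelium were present in both lines. Of 14 tested, 4 were lower with TBX3iso2 (28.6%, against 12.3% of all genes tested), 1 was higher and 9 were not called. The lower ones include *GATA3* and *ERBB2*, which are described below. *EPCAM*, an epithelial adhesion protein, was 181 and 188 RPKM in EV and 210 and 232 RPKM with TBX3iso2, and *KRT8*, the keratin of luminal cells, was between 654 and 768 RPKM in all 4 libraries. Of 27 markers of fibroblasts, endothelium, leukocytes and adipocytes that have a value in the table, 22 were under 0.5 RPKM in each of the 4 libraries. Those above it were *COL1A1*, *PECAM1*, *CD14*, *CD68* and *CSF1R*. *COL1A1* (4.16 and 4.44 RPKM in EV against 7.27 and 6.86 RPKM with TBX3iso2) was called higher. *PECAM1* (7.12 and 7.46 RPKM against 1.37 and 1.21 RPKM) and *CD14* (10.7 and 9.44 RPKM against 2.24 and 2.56 RPKM) were called lower. *CD68* (44.1 and 43.2 RPKM against 34 and 34.1 RPKM) and *CSF1R* (1.89 and 1.8 RPKM against 1.35 and 1.21 RPKM) were not called. *PTPRC*, the common leukocyte antigen, did not exceed 0.00773 RPKM and *CDH5*, the cadherin of endothelium, did not exceed 0.083 RPKM.

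Between TBX3iso2 and EV, 2720 genes were differentially expressed, which is 21.2% of the genes tested. Higher with TBX3iso2 were 1145 genes (8.94%) and lower were 1575 (12.3%), and these percentages are the background for every group below. All 2720 had TBX3iso2 libraries outside the range of the EV libraries, which a call with 2 libraries per line makes likely by itself. The share over all genes tested was not counted, so this is no added support for the calls. Falls were larger than rises. Over 2-fold changes were called for 290 genes that rose and 628 that fell, over 4-fold for 44 and 118, and over 8-fold for 9 and 37. Summed over genes, the line means of the higher genes gained 15100 RPKM and those of the lower genes decreased by 15400 RPKM. These sums do not show a balance, because the totals over all genes differed between libraries. The totals were 325690 and 323953 RPKM in EV and 331476 and 357269 RPKM with TBX3iso2, highest in replicate 2. The median log2 fold change over all genes tested was -0.002. Among genes at 0.5 RPKM or more in EV, those with a low level were called more often in both directions. Of genes with an EV level between 0.5 and 2 RPKM, 12.2% were higher and 17.0% lower. Between 50 and 200 RPKM these shares were 5.79% and 7.85%. Of the 181 genes tested that were under 0.5 RPKM in EV, 61.3% were higher and 0.552% lower. Such genes passed the filter only through higher levels in the other lines, so this direction was largely fixed by the filter.

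**Figure D1:**
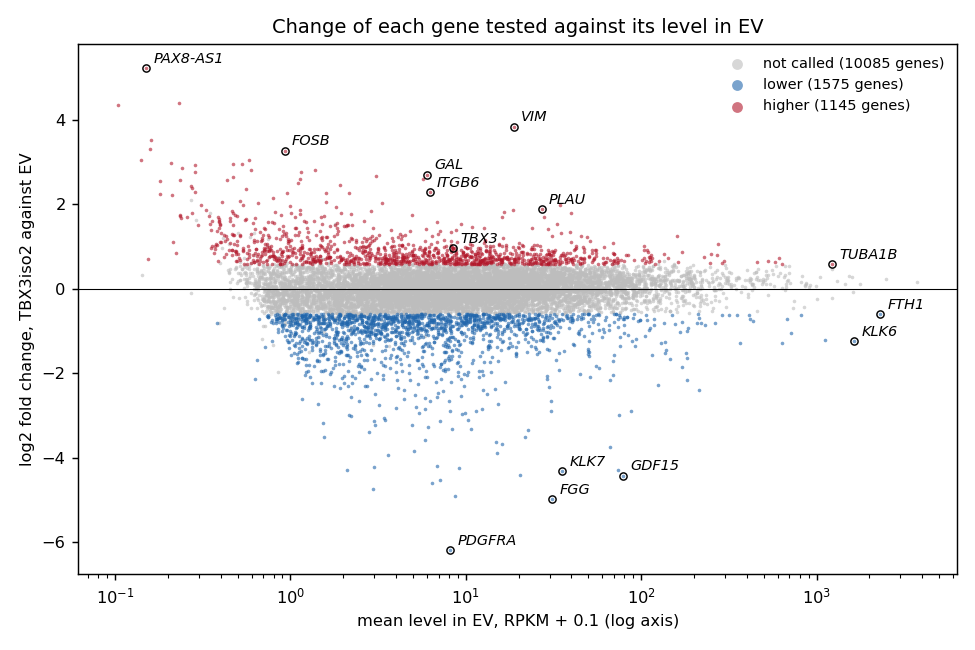
Log2 fold change of each of the 12805 genes tested (vertical axis) against its mean level in EV in RPKM plus 0.1 (horizontal log axis), with genes called higher in red, genes called lower in blue and the rest in grey. The largest falls lie further from 0 than the largest rises, and *PDGFRA* and *PAX8-AS1* mark the ends.

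The largest rises included genes at a trace in EV and genes with a clear level there. Among genes that reached 5 RPKM in 1 of the lines, *VIM*, *PAX8-AS1* and *FOSB* came before *ANO1*, which encodes a calcium-activated chloride channel. *ANO1* was 1.33 and 1.22 RPKM in EV and 10.5 and 8.83 RPKM with TBX3iso2 (log2 fold change 2.82, standard error 0.122, limma adjusted p = 8.42e-06). *NLRP1*, an inflammasome sensor, was 1.07 and 1.03 RPKM against 8.40 and 7.09 RPKM. The next genes included a neuropeptide and a neuropeptide receptor. *GAL*, which encodes galanin, was 6.30 and 5.47 RPKM against 35.6 and 42.0 RPKM, and *NTSR1*, the neurotensin receptor, was 3.07 and 2.88 RPKM against 18.8 and 20.4 RPKM. *PLAC8* (log2 fold change 2.61), *LYPD1* (2.45) and *ITGB6* (2.29) followed, together with *PTX3* and *CSF2*, which are described with the secreted proteins. *PAX8-AS1*, *LYPD1* and *ITGB6* lie on chromosome arm 2q, where many genes stood higher, as described below. Only genes whose lines did not overlap were ranked here, so their separation is no separate result. Among those named, *FOSB* had the widest spread between replicates, with 13.4 and 5.76 RPKM in the TBX3iso2 libraries.

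The falls took several genes from a clear level to a trace. *RARRES1*, a retinoid-responsive membrane protein, was 70.5 and 76.4 RPKM in EV and 3.59 and 3.69 RPKM with TBX3iso2 (log2 fold change -4.30, standard error 0.0928, limma adjusted p = 4.13e-07). *GDF15*, a stress-induced member of the TGF-beta superfamily, was 72.6 and 84.0 RPKM against 3.08 and 4.06 RPKM, a 21.9-fold lower mean. *CHI3L1*, a secreted chitinase-like protein, was 6.99 and 7.05 RPKM against 0.172 and 0.253 RPKM. *ATP6V1B1*, a subunit of the vacuolar proton pump, was 8.72 and 9.36 RPKM against 0.452 and 0.329 RPKM. *ALDH3B2*, an aldehyde dehydrogenase, was 15.1 and 14.6 RPKM against 0.894 and 0.922 RPKM. The 2 TBX3iso2 libraries of *APCS*, serum amyloid P, differed more, at 0.157 and 0.436 RPKM against 6.68 and 6.74 RPKM in EV. By RPKM lost, the abundant *KLK6*, *FTH1* and *CTSD* came first, and the call of *FTH1* ended without any of EV replicate 1, EV replicate 2 or TBX3iso2 replicate 1, at limma adjusted p of 0.149, 0.216 and 0.128.

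A switch between absence and presence was rare. Under 0.1 RPKM in both EV libraries and at 1 RPKM or more in both TBX3iso2 libraries were 7 genes, *CST7*, *HOXA11*, *MARCH4*, *PAX8-AS1*, *SLC16A9*, *TYRP1* and *XAGE2*. The opposite held for 8 genes, among them *ALDH1A1*, *CD36*, *LINC01419*, *MUC7*, *PDGFRA*, *SNORD5* and *TPRG1*. *CST7*, a cystatin of leukocytes, was listed at 0 in both EV libraries and was 1.26 and 1.72 RPKM with TBX3iso2. *TYRP1*, a melanin synthesis enzyme of pigment cells, was 0.0157 and 0 RPKM against 1.29 and 1.28 RPKM. *CST7*, *TYRP1* and *TPRG1* had means under the filter and were not tested.

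The EMT factors did not move as 1 group. Of 19 factors, 12 were tested, 3 were higher and 4 lower, with a median log2 fold change of -0.05. *SNAI2* was 12.5 and 11.9 RPKM in EV and 20.2 and 18.3 RPKM with TBX3iso2 (log2 fold change 0.65, standard error 0.0809, limma adjusted p = 0.000616), and without TBX3iso2 replicate 1 it was 0.58, short of the 1.5-fold threshold. *TWIST1* was 30.3 and 32.7 RPKM against 13.8 and 14.2 RPKM (log2 fold change -1.16). *SNAI1* was 3.91 and 3.88 RPKM in EV and 1.61 and 1.87 RPKM with TBX3iso2 (log2 fold change -1.12). *TWIST2*, which lies on chromosome arm 2q, was higher, at 0.871 and 0.611 RPKM against 0.190 and 0.121 RPKM, a low level at both ends. *SOX4*, a factor of progenitor cells, was lower (log2 fold change -1.02). *ZEB1* was 1.07 and 1.12 RPKM against 1.26 and 0.881 RPKM, and its lines overlapped (limma adjusted p = 0.849).

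Epithelial transcription factors were lower more often than higher. Of 13 tested, 5 were lower and 1 was higher, with a median of -0.41. *ELF3*, an ETS factor of epithelial differentiation, was 50.0 and 52.4 RPKM in EV and 13.5 and 10.5 RPKM with TBX3iso2 (log2 fold change -2.10, standard error 0.117, limma adjusted p = 1.86e-05). *GRHL1*, a factor of the epidermal barrier, was 8.68 and 7.79 RPKM against 3.14 and 2.78 RPKM. *TP63*, the factor of basal epithelium, had a log2 fold change of -3.11. *OVOL1*, a repressor of mesenchymal genes, was higher, from 3.06 and 2.86 RPKM to 7.32 and 6.67 RPKM. Of 14 mammary factors tested, 2 were higher and 4 lower, among the latter *GATA3*, the factor of luminal cells, which was 4.59 and 4.49 RPKM against 2.03 and 2.18 RPKM.

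Cadherins stayed under the fold threshold. None of the 5 cadherins tested was called by limma, and 2 of them, *CDH1* and *CDH11*, had an adjusted p under 0.05 without reaching the fold threshold. *CDH1*, which encodes E-cadherin, was 148 and 142 RPKM in EV and 111 and 93.3 RPKM with TBX3iso2 (log2 fold change -0.51, limma adjusted p = 0.00592). It passed the fold threshold without TBX3iso2 replicate 1 and under quantile normalization, at -0.63 in each. *CDH11*, a cadherin of mesenchymal cells, was 9.31 and 8.48 RPKM against 12.7 and 10.7 RPKM (log2 fold change 0.39, limma adjusted p = 0.0278). *CDH2*, which encodes N-cadherin, was 5.95 and 5.42 RPKM against 5.06 and 4.66 RPKM (adjusted p = 0.0896 in limma), and *CDH3*, P-cadherin of basal cells, had a log2 fold change of -0.08. Tight junction genes went down in part. Of 23 tested, 7 were lower and 0 were higher, with a median of -0.30. *TJP3*, a scaffold of the tight junction, was 12 and 11.6 RPKM against 2.65 and 2.79 RPKM (log2 fold change -2.08, limma adjusted p = 2.7e-05). *CLDN7*, an abundant claudin, had a log2 fold change of -0.62, and of -0.53 without TBX3iso2 replicate 1, where the call ended. Of 9 desmosome genes tested, 2 were lower and 7 not called, with a median of -0.01. One of the lower genes was the plakin *PPL*, at 52.0 and 49.2 RPKM against 18.7 and 15.1 RPKM.

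Of 6 intermediate filament genes other than keratins, 3 were higher and 0 lower. *VIM*, vimentin, the mesenchymal intermediate filament, was 18.5 and 18.9 RPKM in EV and 260 and 278 RPKM with TBX3iso2, among the 8 largest gains in RPKM. *NES*, nestin, was 1.22 and 1.05 RPKM against 3.37 and 3.78 RPKM. *LMNA*, which encodes the nuclear lamins A and C, was 114 and 108 RPKM against 179 and 193 RPKM (log2 fold change 0.74, limma adjusted p = 0.000448). Of 16 keratins tested, 2 were higher and 3 lower. *KRT19*, a luminal keratin, was 697 and 662 RPKM against 387 and 441 RPKM, and *KRT15* was 5.22 and 6.15 RPKM against 2.26 and 1.74 RPKM. Contractile genes split as well, with 6 of 27 higher and 3 lower. *CALD1*, the actin-binding caldesmon, was 0.858 and 0.963 RPKM against 3.54 and 3.33 RPKM, and the myosin light chain *MYL9* was 2.51 and 2.99 RPKM against 6.28 and 6.67 RPKM. *ACTA2*, smooth muscle actin, was lower, from 3.92 and 4.34 RPKM to 1.13 and 1.33 RPKM, as was *MYLK*, the kinase of myosin light chains (log2 fold change -1.83).

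**Figure D2:**
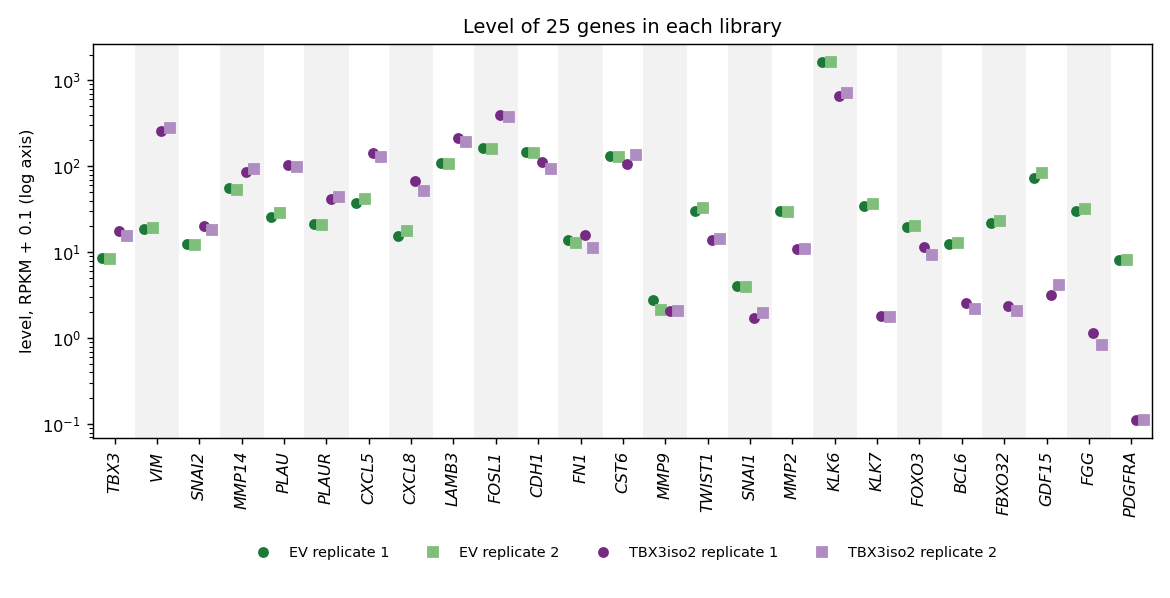
Level of 25 genes in each library, in RPKM plus 0.1 on a log axis, with EV in green, TBX3iso2 in purple, circles for replicate 1 and squares for replicate 2. *VIM*, *PLAU* and the chemokines lie higher in both TBX3iso2 libraries, *FN1* and *CST6* overlap between the lines, and *KLK7*, *FBXO32*, *GDF15*, *FGG* and *PDGFRA* lie lower in both.

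Among proteases, all 3 genes tested of the urokinase system rose and 6 of 7 kallikreins fell. Urokinase (*PLAU*) turns plasminogen into plasmin at the cell surface, *PLAUR* is its receptor and *PLAT* is the tissue-type activator. *PLAU* was 25.6 and 28.4 RPKM in EV and 104 and 97.3 RPKM with TBX3iso2, a 3.72-fold higher mean (log2 fold change 1.89, standard error 0.0882, limma adjusted p = 1e-05). *PLAUR* was 21.2 and 20.6 RPKM against 41.7 and 44.4 RPKM. *PLAT* was 1.68 and 1.41 RPKM against 3.05 and 2.78 RPKM. The activators and the receptor all stood higher in both TBX3iso2 libraries, as did every gene called higher.

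Kallikreins are secreted serine proteases encoded side by side on the long arm of chromosome 19. Of 7 tested, 6 were lower and 0 higher, with a median log2 fold change of -1.63. *KLK7*, which cleaves corneodesmosomes, was 34.4 and 36.3 RPKM in EV and 1.72 and 1.66 RPKM with TBX3iso2 (log2 fold change -4.31, standard error 0.0931, limma adjusted p = 4.13e-07). *KLK8* was 65.1 and 67.4 RPKM against 3.98 and 5.99 RPKM, *KLK9* was 30.4 and 30.3 RPKM against 3.87 and 4.10 RPKM, and *KLK6* was 1625 and 1642 RPKM against 666 and 719 RPKM. The sum over the kallikreins was 1986 and 2010 RPKM in EV and 749 and 811 RPKM with TBX3iso2. Counting only genes tested, *KLK5* to *KLK10* form a run of 6 neighbours that were all lower, with a median of -2.26. The run lies in GRCh37 between positions 51446559 and 51523431.

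Of 8 matrix metalloproteases tested, 1 was higher and 3 lower. *MMP14*, the membrane-bound activator of MMP2, was 55.2 and 52.7 RPKM in EV and 86.7 and 92.1 RPKM with TBX3iso2 (log2 fold change 0.73, standard error 0.0739, limma adjusted p = 0.000251). *MMP2*, gelatinase A, was 30.1 and 29.0 RPKM against 10.7 and 10.8 RPKM (log2 fold change -1.45, limma adjusted p = 1.25e-05). *MMP28* was 5.83 and 5.62 RPKM against 0.787 and 0.958 RPKM. *MMP9*, gelatinase B, was 2.65 and 2.05 RPKM against 1.99 RPKM in both TBX3iso2 libraries (adjusted p = 0.207 in limma). Its replicates in EV differed by more than the lines did. *TIMP1*, an inhibitor of these enzymes, was 230 and 239 RPKM against 180 and 221 RPKM (adjusted p = 0.218 in limma), and *CST6*, a cystatin, was 133 and 130 RPKM against 105 and 134 RPKM (adjusted p = 0.43 in limma). Cathepsins, the lysosomal proteases, were lower in 5 and higher in 2 of 12 tested. *CTSD* was 1138 and 1111 RPKM against 460 and 512 RPKM and *CTSH* was 28.6 and 29.1 RPKM against 10.1 and 11.4 RPKM, whereas *CTSZ* was 110 and 109 RPKM against 193 and 211 RPKM. Among the inhibitors, the neighbouring and similar *SERPINB3* and *SERPINB4*, which share reads in part, had log2 fold changes of -3.62 and -3.58, and *SLPI*, the leukocyte protease inhibitor of mucosa, was 128 and 144 RPKM against 50.4 and 62.9 RPKM.

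Laminins, which build the basement membrane, had 3 higher and 1 lower of 8 tested. *LAMB3* was 109 and 107 RPKM in EV and 216 and 194 RPKM with TBX3iso2 (log2 fold change 0.92, standard error 0.0889, limma adjusted p = 0.000204). *LAMA3* was 20.4 and 19.5 RPKM against 38.5 and 28.9 RPKM. The call of *LAMA3* ended without TBX3iso2 replicate 1, at 0.53. *LAMB2*, a chain of other laminins, was lower (log2 fold change -0.85). Of 16 integrins tested, 5 were higher and 2 lower, and 4 of the 5 higher ones lie on chromosome arm 2q, which is described below. *ITGB6*, the epithelial partner of integrin alpha v, was 6.49 and 5.78 RPKM against 32.9 and 27.9 RPKM (log2 fold change 2.29, limma adjusted p = 1e-05). *ITGA6*, part of the laminin receptor, was 26 and 25.4 RPKM against 48.1 and 40.7 RPKM. *ITGAV* was 10.2 and 9.36 RPKM against 19.9 and 14.1 RPKM, and its call ended without EV replicate 2 (log2 fold change 0.71, limma adjusted p = 0.0635) and without TBX3iso2 replicate 1 (0.52). Outside 2q, 1 of 12 integrins was higher and 2 were lower.

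Matrix genes went both ways. Of 17 collagens tested, 6 were higher and 4 lower. *COL6A2* was 0.505 and 0.330 RPKM in EV and 1.90 and 2.22 RPKM with TBX3iso2, and *COL5A1*, a fibrillar collagen, was 3.29 and 3.10 RPKM against 1.01 and 0.788 RPKM. *FN1*, fibronectin, was 13.7 and 12.8 RPKM against 15.8 and 11.2 RPKM (log2 fold change 0.01, limma adjusted p = 0.969), and its EV libraries lay inside the TBX3iso2 range. Of 13 genes for fibronectin and collagen crosslinking, 1 was higher and 2 lower. The lysyl oxidases *LOX* and *LOXL4* were lower, with log2 fold changes of -0.95 and -1.95, and their relative *LOXL3* was higher (1.32). Of 14 proteoglycans tested, 7 were lower and 1 higher, with a median of -0.53. *BGN*, biglycan, was 7.94 and 8.03 RPKM against 1.09 and 0.888 RPKM, *SDC3* was 11.5 and 10.1 RPKM against 4.39 and 4.27 RPKM, and the exception *GPC4*, a glypican, was 0.730 and 0.679 RPKM against 2.53 and 2.06 RPKM.

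Of 9 chemokines tested, 7 were higher and 0 lower, with a median log2 fold change of 1.59. *CXCL5*, which attracts neutrophils as its neighbours do, was 37.7 and 41.4 RPKM in EV and 144 and 129 RPKM with TBX3iso2 (log2 fold change 1.79, standard error 0.0877, limma adjusted p = 1.06e-05). *CXCL8*, interleukin 8, was 15.2 and 17.8 RPKM against 67.4 and 51.2 RPKM. *CXCL1* was 2.81 and 3.66 RPKM against 14.6 and 12.3 RPKM, *CXCL2* was 6.51 and 7.60 RPKM against 21.2 and 15.9 RPKM, and *CXCL3* was 2.29 and 3.30 RPKM against 12.1 and 8.64 RPKM. *CXCL1*, *CXCL2* and *CXCL3* are near-identical copies, and how their shared reads were assigned is not given in the sources used here. *CCL20*, on 2q, was 6.07 and 7.39 RPKM against 23 and 17.9 RPKM. Every TBX3iso2 library was above every EV library for these 6 genes, as was true of each gene called higher.

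The 5 CXCL genes lie close together on the long arm of chromosome 4. Counting only genes tested, they begin a run of 9 higher genes that goes on through *MTHFD2L*, *EPGN*, *EREG* and *AREG* (median log2 fold change 1.37). Genes that were not tested may lie between them. Their promoters are shown because all 5 hold the letters GGAATTTCC, a form of the site that NF-kappaB factors are known to bind, within 100 bases of the start. The 29-base stretches come from RefSeq promoters of GRCh38.p14 (from 250 bases before to 50 after the start), 5′ to 3′ in the direction of the gene, with the letters in capitals.
CXCL8: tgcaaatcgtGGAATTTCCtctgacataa
CXCL1: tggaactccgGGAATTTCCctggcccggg
CXCL5: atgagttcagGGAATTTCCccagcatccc
CXCL3: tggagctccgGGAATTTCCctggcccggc
CXCL2: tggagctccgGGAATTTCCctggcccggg
The stretch of *CXCL8* is chr4:73740468-73740496 on the plus strand and that of *CXCL5* is chr4:73998749-73998777 on the minus strand, with the letters starting 91 and 90 bases before the start of the gene. In *CXCL1*, *CXCL3* and *CXCL2* they start 78, 78 and 77 bases before it, in flanks that are nearly the same in all 3 and so are not independent. On either strand, 42 of the 9472 promoters matched to a gene tested held these letters (0.443%), 7 of 842 of genes called higher (0.831%) and 2 of 1085 of genes called lower (0.184%). The 7 include that of *COL7A1* and the 5 CXCL promoters that prompted the search. These shares are therefore no separate evidence on the genes called higher. *DUSP6*, whose promoter also holds the letters, was called lower. This search was added after the values had been seen. No list of genes that set the activity of NF-kappaB was drawn up, so those given here do not stand for the pathway. *NFKBIA*, inhibitor and target of NF-kappaB, was 75.1 and 75.9 RPKM against 105 and 93.0 RPKM, short of the fold threshold. *RELA*, a subunit, had a log2 fold change of 0.08.

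Other cytokines split into 4 higher and 4 lower of 11 tested. *CSF2*, the growth factor GM-CSF, was 0.893 and 1.13 RPKM in EV and 6.88 and 5.51 RPKM with TBX3iso2 (log2 fold change 2.50, standard error 0.155, limma adjusted p = 2.97e-05). *IL11* was 2.32 and 1.89 RPKM against 8.51 and 6.44 RPKM, and *IL6* was 1.62 and 1.93 RPKM against 5.71 and 3.95 RPKM. Opposite to these, *CSF1*, the macrophage growth factor, was 29.1 and 28.6 RPKM against 7.03 and 6.73 RPKM, and *TNFSF10*, the death ligand TRAIL, was 4.46 and 4.19 RPKM against 0.810 and 0.483 RPKM. *IL1A* and *IL1B* were lower as well (log2 fold changes -0.97 and -0.96). Of 9 ligands of the EGF family, 5 were higher and 1 lower, with a median of 0.62. *EPGN*, epigen, was 39.5 and 38.2 RPKM against 112 and 87.8 RPKM, and *HBEGF* was 7.80 and 8.47 RPKM against 17.5 and 18.2 RPKM. *EREG* and *AREG* had log2 fold changes of 0.81 and 0.62, and both calls ended without TBX3iso2 replicate 1 (0.58 and 0.57). Of 3 genes of the EGF receptor family tested, 2 were lower and 0 higher. *ERBB2*, HER2, was 444 and 423 RPKM against 259 and 256 RPKM (log2 fold change -0.75, limma adjusted p = 0.000522), *ERBB3* was 10.5 and 9.94 RPKM against 5.57 and 4.98 RPKM, and *EGFR* was 13.6 and 11.9 RPKM against 20.6 and 10.7 RPKM, with more spread between the TBX3iso2 replicates than between the lines (log2 fold change 0.22, and 0.69 and called without TBX3iso2 replicate 2).

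Ligands of the PDGF, VEGF and angiopoietin families were higher in 5 and lower in 3 of 9 tested, and the receptor *PDGFRA* was nearly absent with TBX3iso2, at 0.0111 and 0.0132 RPKM against 8.08 and 7.98 RPKM. *ANGPTL4*, an angiopoietin-like inhibitor of lipoprotein lipase, was 30.3 and 25.3 RPKM in EV and 82.3 and 98.2 RPKM with TBX3iso2 (log2 fold change 1.69, standard error 0.118, limma adjusted p = 4.95e-05). *PGF*, placental growth factor, was 6.94 and 6.72 RPKM against 15.6 and 18.4 RPKM, whereas *VEGFA* was 99.2 and 97.1 RPKM against 59.8 and 57.1 RPKM. *IGFBP3*, the main carrier of insulin-like growth factors, was 208 and 219 RPKM against 41.9 and 39.5 RPKM, a 5.24-fold lower mean. In the TGF-beta group, 8 of 39 genes tested were higher and 8 lower, with a median of 0.00. The ligand *TGFB2* was 39.9 and 41.7 RPKM against 18.1 and 14.8 RPKM, and the latent binding protein *LTBP3* was 51.7 and 47.9 RPKM against 18 and 18.9 RPKM. The feedback target *PMEPA1* was 31.6 and 30.1 RPKM against 73.1 and 74.2 RPKM. Of WNT ligands, 3 of 6 tested were higher, all at low levels, such as *WNT7A* at 0.356 and 0.351 RPKM against 1.23 and 1.49 RPKM, and none of 10 WNT receptors was called by limma. NOTCH genes were lower in 7 and higher in 2 of 23, with *NOTCH3* at 2.78 and 2.42 RPKM against 0.964 and 0.716 RPKM.

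FOXO factors, which insulin and AKT signalling keeps out of the nucleus, were lower, and so were most of their known targets that changed. All 3 FOXO genes tested were lower. *FOXO3* was 19.8 and 20 RPKM in EV and 11.3 and 9.27 RPKM with TBX3iso2 (log2 fold change -0.96, standard error 0.104, limma adjusted p = 0.000333), *FOXO1* was 3.98 and 4.15 RPKM against 1.71 and 1.33 RPKM, and *FOXO6* was 5.45 and 5.06 RPKM against 1.08 and 0.972 RPKM. Of 27 targets tested, 16 were lower and 2 higher, with a median of -0.81. *FBXO32*, a ubiquitin ligase of muscle wasting, was 21.8 and 23.3 RPKM against 2.27 and 1.99 RPKM (log2 fold change -3.35, limma adjusted p = 2.43e-06). *BCL6*, a transcriptional repressor, was 12.3 and 12.6 RPKM against 2.47 and 2.08 RPKM, and *CCNG2*, a cyclin of arrested cells, was 6.30 and 6.62 RPKM against 1.76 and 1.72 RPKM. The exceptions were *TXNIP*, an inhibitor of glucose uptake, at 24.3 and 22.9 RPKM against 64.7 and 64.3 RPKM, and *EEPD1*. Of 21 genes of the kinase arm 4 were higher and 4 lower, among them the serum-induced kinase *SGK1* at 6.86 and 7.66 RPKM against 3.00 and 2.67 RPKM.

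Inhibitors of cyclin-dependent kinases, some of which TBX3 is known to repress, were lower in 2 and higher in 0 of 7 tested. *CDKN1B*, p27, was 17.4 and 17.9 RPKM in EV and 11.1 and 10.7 RPKM with TBX3iso2 (log2 fold change -0.69, standard error 0.0714, limma adjusted p = 0.000265). *CDKN2B*, p15, was 8.11 and 7.97 RPKM against 5.14 and 4.18 RPKM. *CDKN1A*, p21, was 25 and 23.1 RPKM against 19.0 and 18.8 RPKM (log2 fold change -0.35, limma adjusted p = 0.0231), and *CDKN2A*, the locus of p16 and p14ARF, had -0.33 (limma adjusted p = 0.0173), both short of 1.5-fold. The pocket protein *RBL2* was 12.1 and 11.7 RPKM against 6.89 and 5.46 RPKM. Genes of the G1/S step and of DNA replication were called only upwards, 16 of 67 higher (23.9%) with a median of 0.39. *GINS2*, part of the replicative helicase, was 32.3 and 31.0 RPKM against 53.4 and 62.7 RPKM, and *RRM2*, which makes deoxyribonucleotides, was 76.0 and 72.3 RPKM against 117 and 120 RPKM. Of 71 mitotic genes, 8 were higher (11.3%, near the share over all genes) and 0 lower, with a median of 0.25, and 3 of the 8 lie on 2q. *MKI67*, the Ki-67 antigen, was 24.4 and 24.3 RPKM against 26.1 and 16.6 RPKM (adjusted p = 0.368 in limma). Ribosomal proteins had a median of 0.20 with 1 of 61 called, and nuclear-encoded subunits of the respiratory chain had 0.19 with 3 of 58 called, and both medians were 0.06 without TBX3iso2 replicate 2. Of 9 BH3-only proteins, which start apoptosis, 3 were lower, led by *BMF* (log2 fold change -3.10), and the 3 anti-apoptotic members tested were not called by limma, at log2 fold changes of 0.38 for *BCL2L1*, -0.32 for *BCL2L2* and 0.55 for *MCL1*.

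**Figure D3:**
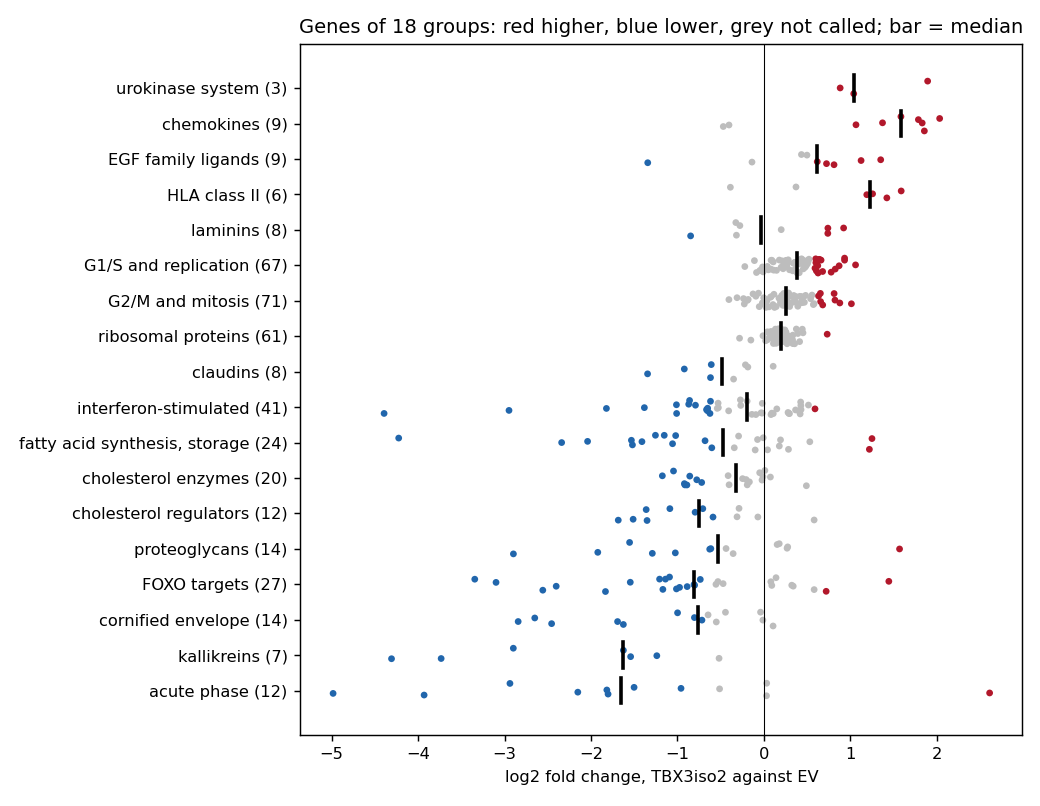
Log2 fold change of each gene tested in 18 groups, with the number of genes in brackets, genes called higher in red, genes called lower in blue, genes not called in grey, and the median as a black bar. Chemokines and the urokinase system lie to the right, acute-phase genes, kallikreins and FOXO targets to the left, and the replication and ribosomal genes form narrow bands just above 0.

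Genes of lipid synthesis that were called were mostly lower. Cholesterol synthesis and its control had 16 lower and 0 higher of 32 tested, with a median of -0.50. *SREBF2* and *SREBF1*, the factors that switch on sterol and fatty acid synthesis, were 19.8 and 18.4 RPKM against 7.24 and 6.03 RPKM and 24.6 and 22.1 RPKM against 8.97 and 9.02 RPKM (log2 fold changes -1.51 and -1.36). *INSIG1*, which holds these factors back, was 10.7 and 11.1 RPKM against 3.69 and 2.99 RPKM. Of the enzymes, 8 of 20 were lower and 0 higher. In fatty acid synthesis and storage, 12 of 24 were lower and 2 higher. *FASN*, fatty acid synthase, was 148 and 125 RPKM against 50.8 and 44.1 RPKM, and *SCD*, the desaturase, was 70.5 and 67.3 RPKM against 18.1 and 15.4 RPKM (log2 fold change -2.04, standard error 0.0941, limma adjusted p = 9.72e-06). *CD36*, a fatty acid transporter, fell to 0.0359 and 0.0856 RPKM from 2.67 and 3.08 RPKM. The 2 higher genes were *G0S2*, an inhibitor of lipolysis, at 46.0 and 44.5 RPKM against 104 and 111 RPKM, and *FABP5*, a fatty acid carrier, at 48.2 and 50.1 RPKM against 107 and 123 RPKM. In glycolysis 1 of 34 genes was higher, *PFKP*, the platelet phosphofructokinase, at 70.7 and 66.4 RPKM against 147 and 144 RPKM, and 9 were lower.

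Acute-phase proteins, secreted mostly by liver in inflammation, were lower in 8 and higher in 1 of 12 tested, with a median of -1.65. *FGG* and *FGB*, chains of fibrinogen, were 30.5 and 31.5 RPKM against 1.05 and 0.740 RPKM and 3.39 and 3.63 RPKM against 0.154 and 0.120 RPKM. *LCN2*, lipocalin 2, was 177 and 187 RPKM against 39.6 and 42.1 RPKM (log2 fold change -2.15, standard error 0.123, limma adjusted p = 2e-05). The exception was *PTX3*, a pentraxin that stromal and epithelial cells make, at 5.21 and 5.92 RPKM against 36.9 and 32.2 RPKM. Of 17 complement and coagulation genes tested, 7 were lower, 2 higher and 8 not called, with a median of -0.27. The higher ones were *PROCR* (log2 fold change 1.14), the receptor of protein C, and *F2RL1* (0.61, and 0.48 and not called without TBX3iso2 replicate 1), a protease-activated receptor. Lower was *C3*, at 186 and 173 RPKM against 67.1 and 59.3 RPKM, as were the neighbours *C1R* and *C1S*, with log2 fold changes of -2.57 and -2.38. Of 41 interferon-stimulated genes, 14 were lower and 1 higher. *BST2*, tetherin, was 20 and 20.7 RPKM against 0.835 and 0.912 RPKM, *GBP2* was 9 and 9.88 RPKM against 1.21 and 1.06 RPKM, and *STAT2* was 19.0 and 19.2 RPKM against 7.84 and 6.72 RPKM. Other members of the same response did not fall, such as *IFIT1* (log2 fold change 0.15) and *ISG15* (0.42). In antigen presentation, class I genes had 8 lower and 1 higher of 22, led by their activator *NLRC5* at 7.48 and 7.52 RPKM against 2.89 and 2.36 RPKM. Class II genes had 4 higher and 0 lower of 6, with the activator *CIITA* at 0.846 and 0.878 RPKM against 2.52 and 1.74 RPKM, and the invariant chain *CD74* at 29.4 and 29.1 RPKM against 76.9 and 80.5 RPKM (log2 fold change 1.42, limma adjusted p = 1.59e-05).

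Of 14 genes of the cornified envelope tested, 8 were lower, 0 higher and 6 not called. Of 13 S100 genes, 3 were higher and 3 lower. The higher ones were *S100A2* (log2 fold change 0.69), *S100A3* (0.86) and *S100A11* (0.59), and the call of *S100A11* ended without EV replicate 1, EV replicate 2 or TBX3iso2 replicate 2 (limma adjusted p of 0.139, 0.105 and 0.0657). The peptidylarginine deiminases *PADI1*, *PADI2* and *PADI3*, which citrullinate keratin-associated proteins, had log2 fold changes of -2.84, -2.65 and -2.46, and *PADI2* was 30.6 and 30.1 RPKM in EV and 4.99 and 4.52 RPKM with TBX3iso2. *S100A8* and *S100A9*, which form calprotectin, were 84.2 and 89.4 RPKM against 11.2 and 12 RPKM and 625 and 647 RPKM against 241 and 282 RPKM, and *MUC1*, the membrane mucin of glandular cells, was 169 and 172 RPKM against 47.8 and 47.5 RPKM (log2 fold change -1.84, standard error 0.0716, limma adjusted p = 5.08e-06).

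Stress and immediate-early factors separated into branches. AP-1 members and other immediate-early factors were higher in 10 and lower in 3 of 33 tested. *FOSL1*, the FRA-1 subunit of AP-1, was 163 and 158 RPKM in EV and 393 and 371 RPKM with TBX3iso2 (log2 fold change 1.25, standard error 0.0859, limma adjusted p = 4.73e-05), while its relative *FOSL2* was 79.5 and 71.9 RPKM against 34.8 and 25 RPKM. *ATF3* was 1.97 and 2.17 RPKM against 14.5 and 7.46 RPKM and *NR4A1* was 0.562 and 0.545 RPKM against 3.58 and 1.87 RPKM, so TBX3iso2 replicate 1 was the higher of the pair for *FOSB*, *ATF3* and *NR4A1* alike. Of 15 genes of the ATF4 stress response, 7 were lower and 2 higher. *DDIT3*, the factor CHOP, was 44.7 and 55.3 RPKM against 17.1 and 18 RPKM, and *DDIT4*, an inhibitor of the kinase complex mTORC1, was 363 and 371 RPKM against 139 and 163 RPKM, whereas *ATF4* itself had a log2 fold change of -0.10. Of 19 glucocorticoid receptor targets tested, 9 were lower and 1 was higher, among the former *SCNN1A* at a log2 fold change of -1.55 and *FKBP5* at -0.79.

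Genes on the long arm of chromosome 2 stood higher with TBX3iso2 along the whole arm. Of 459 genes tested on 2q, 183 were higher (39.9%) and 18 lower (3.92%), against 7.77% higher and 12.3% lower among the 11344 genes tested with a position outside it. Arm 2q holds 3.89% of the genes tested with a position and 16% of all genes called higher. Its median log2 fold change was 0.51, 390 of its 459 genes (85.0%) were above 0, and the medians of the TBX3iso2 libraries against the EV mean were 0.53 and 0.49. The short arm of the same chromosome had a median of 0.02 with 7.10% higher. In windows of 20 Mb from 100 to 240 Mb the median ran between 0.47 and 0.65 without a gap. Members of quite different function shared the shift. *NCL*, nucleolin, was 275 and 274 RPKM against 570 and 579 RPKM, *MCM6*, a helicase subunit, was 27.2 and 26.2 RPKM against 51.2 and 50.9 RPKM, and *RPL37A*, a ribosomal protein, was 610 and 616 RPKM against 906 and 1138 RPKM. The call of *RPL37A* ended without EV replicate 1 (limma adjusted p = 0.0929), without EV replicate 2 (0.0888) and, by fold, without TBX3iso2 replicate 2. Of the other 40 arms with at least 20 genes tested, 7p had the next highest median, 0.28, with 23.6% higher, and 5p had the lowest, -0.43, with 29.8% lower, followed by 6p at -0.24. The rest lay between -0.15 and 0.15. Arms and windows were chosen after the values had been seen, and the cause of the shift was not tested. Without the genes on 2q, 962 genes were higher and 1557 lower, and the medians of the chemokines and of the G1/S genes were 1.58 and 0.36.

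**Figure D4:**
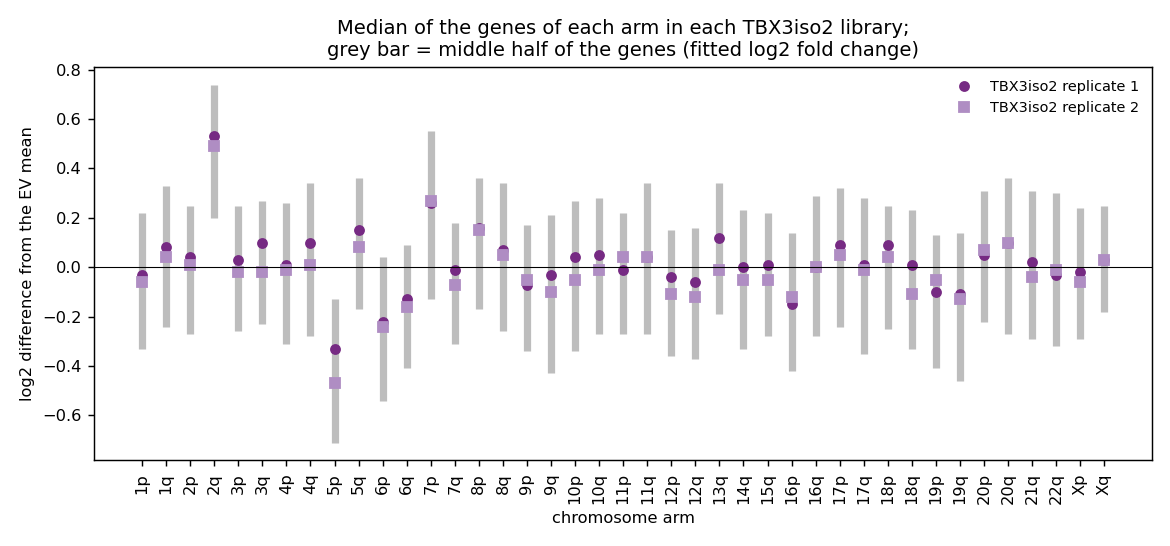
Median log2 difference from the EV mean of the genes of each chromosome arm, for TBX3iso2 replicate 1 (circles) and replicate 2 (squares), with the middle range of the fitted log2 fold changes (25th to 75th percentile) as a grey bar. Arm 2q stands highest in both libraries, at 0.53 and 0.49, and 5p lowest.

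**Figure D5:**
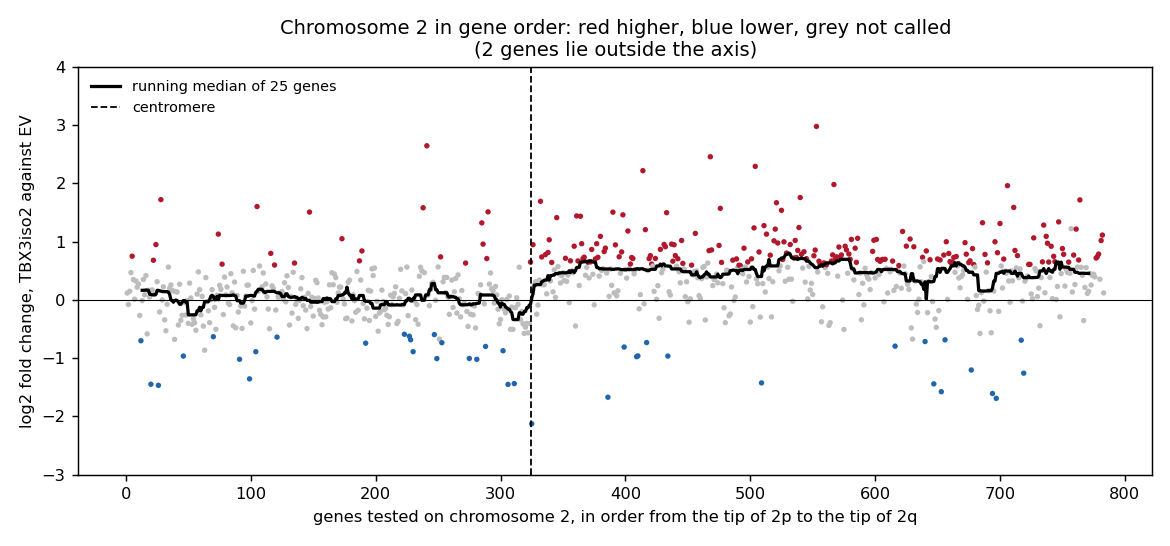
Log2 fold change of the 783 genes tested on chromosome 2 in their order along it, with a running median of 25 genes as a black line and the centromere as a dashed line, genes called higher in red and lower in blue. The running median runs on both sides of 0 along the short arm and lies above 0 along the long arm, and 2 genes lie outside the axis.

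Letters known to be bound by T-box factors were no more common in the promoters of genes that changed. The sequence AGGTGTGA, searched on both strands of the same RefSeq promoters, was in 6 of 842 promoters of genes called higher (0.713%), 8 of 1085 of genes called lower (0.737%) and 53 of 7545 of genes not called (0.702%). Among the genes named by rule whose promoters were searched, 5 hold it, shown with 10 bases on each side. Not every gene of the text or of its lists was searched, so 5 is no full count. After a C these letters also spell the E-box CAGGTG, to which SNAI2 is known to bind, as in *KRT5* and, on the other strand, *WFDC2*.
KRT5: accactgtgcAGGTGTGAccggtgagct
IL7R: gcttgagcctAGGTGTGAatctactgcc
WFDC2: gagcatcggcTCACACCTgcaccccgcc
CDKN1A: gcgccagctgAGGTGTGAgcagctgccg
BAD: cacacgcccaAGGTGTGAggcagcgagg
*KRT5*, a basal keratin, and *IL7R*, the interleukin 7 receptor, were higher (log2 fold changes 1.25 and 2.85). *WFDC2*, a WAP inhibitor, was lower (-0.70, and -0.52 without TBX3iso2 replicate 1, where the call ended). *CDKN1A* and *BAD*, a BH3-only protein, were not called, although *BAD* passed without TBX3iso2 replicate 1 (0.59). In *KRT5* the stretch is chr12:52520506-52520533 on the minus strand of GRCh38.p14, with the letters starting 129 bases before the start of the gene. In *CDKN1A* the stretch is chr6:36678705-36678732 and spans the start, with the letters just after it. The E-box CAGGTG was in 19.8% of promoters of higher genes, 22.8% of lower and 17.9% of genes not called, and TGTTTAC, which FOXO factors are known to bind, was in 1.78%, 2.76% and 2.09%. A match in a window of 300 bases does not show binding.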

How the data were processed

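The authors deposited 1 table of RPKM values (read density per length and depth), 1 column for each of 6 libraries. Per the methods and labels, stranded mRNA libraries were sequenced paired-end on a HiSeq instrument, aligned to hg19 with TopHat, and quantified in Partek Genomics Suite. No counts were used here, so depth is known only from the alignment totals in the table, and 1 value per gene covers all isoforms. The methods and the labels differ in the units given for G418 and in the glutamine of the medium.

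RPKM plus 0.1 was log2-transformed, genes averaging 0.5 RPKM or more were kept, and limma 3.58.1 (R 4.3.3) was fitted with 1 mean per line over 6 libraries, a mean-variance trend and Benjamini-Hochberg adjustment. In simulated data for the same contrast over 12805 genes, 86 of 100 genes changed by 1 on the log2 scale were recovered. Of 100 changed by 2, 99 were recovered, and 3 unchanged genes were called. The simulation drew independent noise with the spread between replicates, so it holds no difference between transfected pools. With 2 libraries against 2, an exact permutation test was not useful. Replicates differed by an SD of 0.182 (EV) and 0.273 (TBX3iso2) on the log2 scale.

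Members and lists were chosen with earlier results of these data known. Genes named were *TBX3* and the 12 largest rises and falls among called genes at 5 RPKM or more whose lines did not overlap. Also named were the 8 largest gains and losses in RPKM and up to 6 called members each way per list role. The rule added the EMT and invasion markers of the study, and the first member of a role that was not called. Named outside that rule, after their values had been seen, were the genes that switched on or off, *BCL2L1*, *BCL2L2*, *MCL1*, *CD68*, *CSF1R*, *CDH3*, *CDH5*, *CDH11*, *CDKN2A*, *IFIT1*, *ISG15*, *KRT8*, *MKI67*, *MTHFD2L*, *NFKBIA*, *RELA* and *RRM2*. Positions (GRCh37) were found for 92.2% of genes tested. Alternatives changed the pseudocount, filter, scaling, trend, fit, replicate block and libraries. The removal of 2q was added after seeing the data. Some genes are not reported here.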

Additional observations from a re-analysis of the deposited data

How the results depend on the processing

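The number of genes called ranged from 1870 (pseudocount of 1 RPKM) to 3395 (no filter on low values) over the alternatives, and from 2304 to 3168 when 1 library was left out. With a filter at a mean of 2 RPKM, under which 10313 genes were tested, 1026 genes were lower instead of 1575. Quantile normalization raised the share of called genes that were higher from 42.1% to 49.6%. The replicate block gave 2795 genes called, 1165 higher and 1630 lower. Of the genes named by rule, it added *FOS* (-0.62) and *S100A1* (-0.66) to the lower ones and ended no call. Whether the numbers pair the libraries is not settled with 2 numbers per line. The replicate differences correlated across genes at 0.114 for EV and TBX3iso2, and at 0.22 and 0.499 for the other pairs of lines. Without any filter the median of the PDGF, VEGF and angiopoietin family ligands was 0.0 instead of 0.68 and that of the WNT ligands -0.06 instead of 0.83, as genes near 0 RPKM entered. The medians of the ribosomal proteins and the respiratory chain, 0.20 and 0.19, were 0.04 and 0.08 under quantile normalization and 0.06 each without TBX3iso2 replicate 2. *TBX3* ranged from 0.88 to 1.05 on the log2 scale. Of 445 named genes that were called, all 445 kept their sign in the 14 alternatives set out at the start and 345 were called in every alternative in which they were tested. The lines of each called gene did not overlap, so leaving out 1 library or changing the pseudocount could not turn its sign. The count of signs kept was therefore nearly fixed in advance. Cultures, clones and line cannot be told apart with 1 transfected pool per line, and low genes have the least precision.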

Other observations

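Of 16 genes of the circadian clock tested, 3 were higher and 5 lower, among the latter *DBP*, an output factor of the clock (log2 fold change -1.98). *PER2*, a clock repressor that lies on 2q, was higher (1.21). Of 36 genes of axon guidance, 13 were lower and 4 higher, and in the semaphorins and plexins 8 of 21 were lower and 1 higher. Of 5 mucins tested, 3 were lower and 0 higher. Of 18 HOX genes tested, 3 were higher, 0 lower and 15 not called, a called share of 16.7% that is under the 21.2% of all genes tested, with *HOXA11* at 0.00852 and 0 RPKM in EV and 2.02 and 2.04 RPKM with TBX3iso2.

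Among death genes, 8 of 29 were higher and 3 lower. *TNFRSF10A* and *TNFRSF10B*, the receptors of TRAIL, had log2 fold changes of 0.80 and 0.69 (the latter 0.58 and not called without TBX3iso2 replicate 1), while *CASP14*, the caspase of cornifying cells, had -3.51. Of 19 breast stem-cell markers, 3 were higher and 4 lower.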
